A study of Mus musculus with 4 samples.

Results

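The genes described here encode the growth factors and receptors of the VEGF and angiopoietin pathways in mouse heart: the ligands Vegfa, Vegfb and Angpt1, the VEGF receptors Flt1, Kdr and Flt4, the coreceptors Nrp1 and Nrp2, and the receptors Tek and Tie1. H3K27ac, acetylation of histone H3 at lysine 27, marks active promoters and enhancers and was mapped by chromatin immunoprecipitation and sequencing. Every peak of the replicated list, which the authors derived from both biological replicates, was taken from 50 kb before to 50 kb after each of the 10 genes. This gave 210 of 63061 peaks, or 0.333%, and no peak fell into more than 1 window. The tissue was heart of adult female B6CASTF1/J mice, hybrids of C57BL/6J and CAST/EiJ, aged 2 months, and the labels name no treatment. The 4 libraries came from 2 pools of 2 heart samples each, with 2 technical replicates per pool. Both pools carry the same donor identifier, so the spread between them may be technical.

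VEGF ligands bind receptor tyrosine kinases on endothelial cells. VEGF receptor 2, the product of Kdr, drives growth and migration of these cells, Flt1 binds VEGF tightly and signals weakly, Flt4 serves lymphatic vessels, and neuropilins act as coreceptors that are shared with semaphorins. In the angiopoietin pathway, Angpt1 from perivascular cells activates TIE2, the product of Tek, which works together with the related receptor Tie1 to keep vessels stable.

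Whole heart holds many cell types, and marker genes of cell types, hepatocytes and neurons among them, were looked up. A promoter peak, meaning a peak within 1 kb of any annotated transcription start site (TSS) of the gene, was present at 8 of 8 genes of heart muscle cells, 6 of 6 of endothelium, 4 of 4 of fibroblasts and 3 of 4 of pericytes and smooth muscle. Lymphatic endothelium had 2 of 3, Prox1 and Lyve1 but not Pdpn, near the share of 57.3% of all protein-coding genes. Macrophage genes had 0 of 3, although heart holds macrophages, hepatocyte genes 0 of 2 and neuron genes 0 of 2. In the list of replicate 2, Myh11 of smooth muscle and Cd68 of macrophages also had one. Peaks within 50 kb still covered 0 to 11.3 kb at the hepatocyte genes and 3.40 to 13.4 kb at the neuron genes. The range was 12.3 to 36.4 kb at the genes of heart muscle cells. In mixed tissue such as heart, fewer cells with a mark and less mark per cell cannot be told apart. Peaks were called on joined libraries, so no test between libraries could be made. The lists of biological replicate 1 and 2 give the only spread of each value. This spread includes a shift between the lists and is not an error of the value.

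All 10 genes of the pathway had a promoter peak in the replicated list and in either single-replicate list. Among 21728 protein-coding genes, 57.3% had one in the replicated list. In all 10 a peak also lay within 1 kb of the 5' end of the gene, the start of its most upstream transcript, against 53.7% of protein-coding genes. Of the 33 annotated TSSs of the members, 29 had a peak within 1 kb. Many of these TSSs share a peak, as the 4 of Nrp1 share 1, so this count largely repeats that by gene. The share over all annotated TSSs was not computed. The 4 without one began noncoding transcripts, 2 inside Flt1, 1 inside Tek and 1 inside Vegfa.

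The sequence before the 5' end differed among the receptor genes in its content of CpG, the dinucleotide that is dense in promoters of broadly used genes and sparse in many tissue-restricted ones. The 250 bases before the 5' end held 2 CpG at Tek, 5 at Tie1, 6 at Angpt1, 7 at Flt4, 12 at Vegfa, 16 at Kdr, 17 at Nrp1, 23 at Flt1, 26 at Vegfb and 31 at Nrp2, with a median of 8 over all protein-coding genes. The sequences of the 2 TIE receptors and of Flt1 and Nrp2 show both ends of this range. They are from GRCm38 (mm10), 5′ to 3′ along the gene's strand, with CpG in capitals. The mice were hybrids, and differences of their alleles from this reference were not examined.
Tek, chr4:94739039-94739288, plus strand: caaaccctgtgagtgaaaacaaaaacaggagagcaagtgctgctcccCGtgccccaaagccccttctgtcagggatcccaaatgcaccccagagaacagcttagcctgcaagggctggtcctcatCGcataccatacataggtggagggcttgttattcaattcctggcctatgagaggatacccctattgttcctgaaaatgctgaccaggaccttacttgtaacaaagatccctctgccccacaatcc
Tie1, chr4:118490062-118490311, minus strand: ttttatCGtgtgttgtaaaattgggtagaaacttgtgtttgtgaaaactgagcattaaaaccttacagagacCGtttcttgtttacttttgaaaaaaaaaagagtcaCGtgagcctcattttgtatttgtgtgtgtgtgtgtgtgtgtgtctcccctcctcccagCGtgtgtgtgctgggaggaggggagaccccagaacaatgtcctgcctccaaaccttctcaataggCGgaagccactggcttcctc
Flt1, chr5:147726012-147726261, minus strand: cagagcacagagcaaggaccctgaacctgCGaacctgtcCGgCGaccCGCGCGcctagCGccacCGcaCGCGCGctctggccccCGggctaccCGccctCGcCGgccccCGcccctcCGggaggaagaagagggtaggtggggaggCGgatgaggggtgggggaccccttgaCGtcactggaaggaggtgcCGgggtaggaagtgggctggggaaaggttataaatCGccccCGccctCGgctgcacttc
Nrp2, chr1:62703035-62703284, plus strand: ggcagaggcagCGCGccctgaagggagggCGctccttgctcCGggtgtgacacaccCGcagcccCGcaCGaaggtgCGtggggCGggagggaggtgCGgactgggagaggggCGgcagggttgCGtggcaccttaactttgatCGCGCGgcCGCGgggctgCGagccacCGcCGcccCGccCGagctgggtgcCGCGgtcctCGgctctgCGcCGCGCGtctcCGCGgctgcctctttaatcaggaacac
Over 1000 bp around the 5' end, the ratio of observed to expected CpG was 0.318 at Tek and 0.330 at Tie1, below the median of 0.558 of all protein-coding genes, and 0.813 at Flt1, 0.807 at Flt4 and 0.826 at Nrp2. Both kinds of promoter carried peaks in both single-replicate lists. Tek and Tie1 each had 2 promoter peaks. The wider ones, of 4.13 and 3.33 kb, were wider than 95.4% and 92.5% of all single peaks near a TSS in the replicated list. The other ones measured 0.606 kb at Tek and 0.888 kb at Tie1. A rank among the widest promoter peaks of other genes was not computed. In the list of replicate 1 the larger peak of Tie1 was divided into 2, the wider of 1.65 kb. The CpG ratios of Tek and Tie1 lay at the 34.0th and 34.9th percentile of genes.

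Acetylated length, the length covered by peaks within 50 kb of a gene, ranged from 4.16 kb at Flt4 to 68.0 kb at Nrp1. The median of the 10 genes was 20.7 kb in the replicated list, 17.1 kb in the list of replicate 1 and higher, at 25001 bp, in that of replicate 2. The median of all protein-coding genes was 4.39 kb in the replicated list. Of the 10 members, 9 lay above it, and the same 9 lay above the median of their class when protein-coding genes were divided by length into 10 classes. Flt4 was the exception, with 4.16 kb against a median of 4.93 kb for its length class. Among protein-coding genes with a peak at the 5' end, as all members have, the median was 7.92 kb, and again only Flt4 lay below. Vegfb stood above through peaks nearest to its neighbours. The 1 peak nearest to Vegfb gave 2.12 kb, below its class median of 2.59 kb, which itself counts neighbours' peaks.

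**Figure D1:**
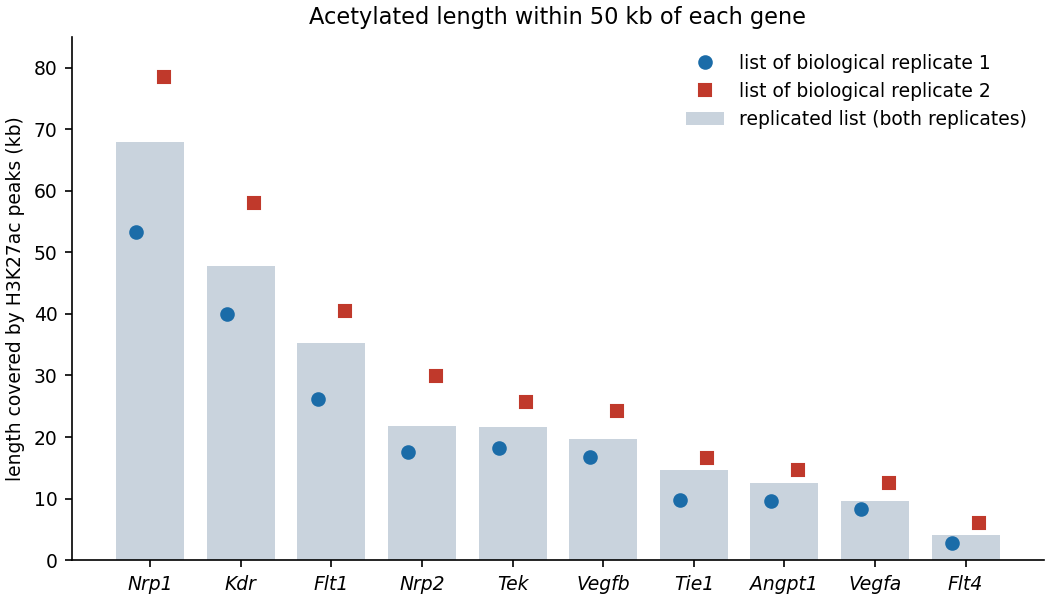
Length covered by H3K27ac peaks within 50 kb of each gene (kb). Bars show the replicated list, circles the list of biological replicate 1 and squares that of replicate 2: the square lies above the circle at every gene, and both are highest at Nrp1 (53.3 and 78.4 kb) and lowest at Flt4 (2.82 and 5.98 kb).

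The list of replicate 2 covered more than that of replicate 1 at every member. The ratio was 1.51 over the 10 windows and 1.49 over all peaks, and ran from 1.41 at Tek to 2.12 at Flt4. The order of the genes by acetylated length was the same in the list of replicate 2 as in the replicated list, and in that of replicate 1 only Nrp2 and Tek changed places. As the replicated list was derived from both replicates, a like order is partly built in. Most neighbours in this order overlapped in the range over both single-replicate lists. These ranges include the shift between the lists, and within each list Nrp1, Kdr and Flt1 held places 1, 2 and 3. Nrp1 (53.3 to 78.4 kb) overlapped Kdr (39.9 to 58.0 kb), Kdr overlapped Flt1 (26.1 to 40.4 kb), Flt1 overlapped Nrp2 (17.6 to 29.96 kb), and Tek (18.2 to 25.7 kb) and Vegfb (16.7 to 24.3 kb) lay over Nrp2 in most of their range. Tie1 (9.79 to 16.67 kb) ended just under the lower value of Vegfb, 16.678 kb, and overlapped Angpt1 and Vegfa. Flt4 (2.82 to 5.98 kb) stood below Vegfa (8.27 to 12.54 kb) without overlap.

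**Figure D2:**
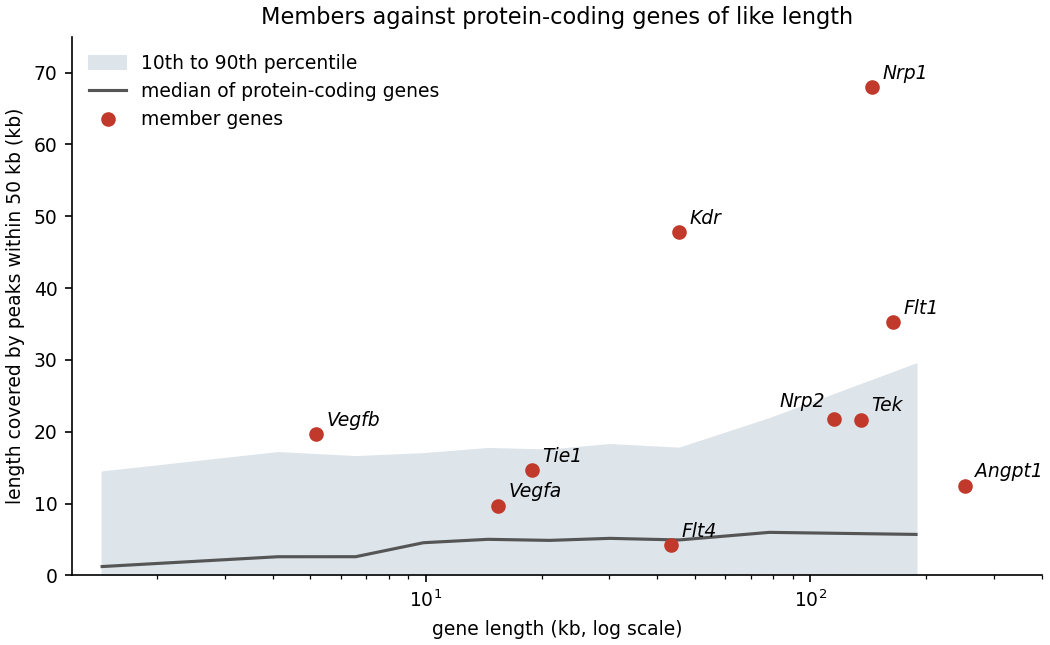
Acetylated length (kb) against gene length (kb, log scale) in the replicated list, with the median (line) and the 10th to 90th percentile (shaded) of protein-coding genes in 10 classes of gene length. Nrp1, Kdr, Flt1 and Vegfb lie above the shaded range drawn at their length, and Flt4 lies just under the line.

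The windows differ in length with the genes, so the density, the covered bases per kb of window, gives another order. Kdr came first with 328 bp per kb, followed by Nrp1 with 278, Vegfb with 187, Flt1 with 133, Tie1 with 123, Nrp2 with 101, Tek with 92.0 and Vegfa with 83.9 bp per kb. Angpt1, in a window stretched by a gene of 252 kb, had 35.4 bp per kb and Flt4 29.0, close to the median of 32.0 bp per kb of all protein-coding genes.

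Among the ligands, Vegfa, the main VEGF (chromosome 17, 46016993 to 46032369, minus strand), had its acetylation in one place. Its window held 9.68 kb in 5 peaks, with 8.27 kb in the list of replicate 1 and 12.54 kb in that of replicate 2. A single promoter peak of 7.44 kb, with a deposited fold of 19.6, made up 76.9% of this length, and it measured 7.20 kb in the list of replicate 1 and 7.78 kb in that of replicate 2. The deposited fold is the authors' value for each peak and is used here only to rank peaks of one list. The promoter peak was wider than 99.2% of peaks near a TSS and covered introns 1 and 2 in full. One further peak in both single-replicate lists, of 1.35 kb and fold 7.68, had its summit 22.8 kb from the 5' end, past the 3' end of the gene. The 3 others were at most 336 bp wide and were found in the list of replicate 2 only.

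Vegfb, a ligand of Flt1 (chromosome 19, 6982473 to 6987651, minus strand), is a short gene among 10 neighbours whose 5' ends lie in its window. The window held 19.7 kb in 14 peaks (16.7 kb in the list of replicate 1 and 24.3 kb in that of replicate 2). The TSS nearest to the summit belonged to Vegfb at 1 of them, its promoter peak of 2.12 kb with a fold of 17.2. The 13 others were nearest to Bad, Fkbp2, Trpt1, Plcb3 and other neighbours, among them the peaks with the highest folds, 22.8 at 35.7 kb and 22.5 at 7.31 kb from the 5' end of Vegfb. Counting only the peak nearest to Vegfb left 2.12 kb of the window's 19.7 kb.

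Angpt1, the activating ligand of TIE2 (chromosome 15, 42424723 to 42676977, minus strand), had 12.48 kb in 13 peaks, with 9.66 kb in the list of replicate 1 and 14.6 kb in that of replicate 2. No other protein-coding gene begins in its window. The promoter peak of 2.51 kb had a fold of 9.05 and measured 2.93 and 2.497 kb in the lists of replicate 1 and 2. Inside intron 1, which is 152.5 kb long, a pair of peaks at 66.4 and 70.0 kb from the 5' end measured 3.33 and 1.87 kb, with folds of 8.46 and 5.42, and both were in both single-replicate lists. Another peak, of fold 5.49, lay 246.9 kb from the 5' end in intron 8. Peaks covered 3.87% of the gene, against a median of 1.98% for all protein-coding genes, and 6 of the 13 peaks were in both single-replicate lists.

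Kdr, the gene of VEGF receptor 2 (chromosome 5, 75932827 to 75978458, minus strand), was the most densely acetylated member. Its window held 47.7 kb in 34 peaks, with 39.9 kb in the list of replicate 1 and 58.0 kb in that of replicate 2. The value of the replicated list exceeded that of 99.5% of protein-coding genes. Peaks covered 58.0% of the gene itself. The promoter peak was 7.56 kb wide with a fold of 17.8, covered intron 1 in full, and in the list of replicate 1 was divided into 4 peaks of which the widest had 3.77 kb. A peak of nearly the same fold, 16.7, and 2.63 kb wide lay over exon 30, the last exon, 44.9 kb from the 5' end. Upstream, 9 peaks with folds from 3.22 to 10.6 had their summits between -50.8 and -35.3 kb, of which 8 were in both single-replicate lists, and no peak of the replicated list had its summit between them and the promoter peak. The list of replicate 2 held 1 peak in that gap, of 601 bp at -23.9 kb. Downstream, 6 peaks between 55.2 and 82.7 kb had folds from 3.22 to 8.61. No other protein-coding gene begins in the window, and Kdr was the nearest such gene for all 34 peaks.

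Flt1, the gene of VEGF receptor 1 (chromosome 5, 147561604 to 147726011, minus strand), had 35.2 kb in 36 peaks, with 26.1 kb in the list of replicate 1 and 40.4 kb in that of replicate 2. The strongest peak was not at the 5' end. The peak there was 4.16 kb wide with a fold of 8.85, and an internal peak of 4.58 kb with a fold of 15.9 lay 80.9 kb from the 5' end, in intron 12 of the coding transcript. This internal peak covers the annotated start of a retained-intron transcript at 79.2 kb. It was 1 of 11 peaks between 65.1 and 84.6 kb, in introns 10 to 12, which together measured 14.3 kb and of which 9 were in both single-replicate lists. Intron 12 was covered over 77.1% and intron 11 over 57.1% of its length. Further into the gene, 3 peaks between 140.0 and 145.9 kb reached folds of 10.7 and 11.3, and 4 upstream peaks between -32.5 and -22.6 kb had folds of up to 8.44.

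Flt4, the gene of VEGF receptor 3 (chromosome 11, 49609263 to 49652739, plus strand), had the least acetylation of the 10. Its window held 4.16 kb in 6 peaks (2.82 kb in the list of replicate 1 and 5.98 kb in that of replicate 2). Its 5' end had 2 peaks, of 356 bp with a fold of 5.59 and of 918 bp with a fold of 9.95, and both were in both single-replicate lists. No other peak of the replicated list had its summit inside the gene, of which 2.81% was covered. The list of replicate 2 held 2 further peaks there, at 4.39 and 22.9 kb from the 5' end, of 435 and 556 bp. The 4 remaining peaks lay downstream, nearest to Scgb3a1 or Cnot6. In the same hearts the lymphatic genes Prox1 and Lyve1 had 10.5 and 8.97 kb and Pdpn had 0.538 kb, and their part in the level of Flt4 was not tested.

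The coreceptor Nrp1 (chromosome 8, 128358604 to 128503363, plus strand) had the longest acetylated stretch of the members. The window held 68.0 kb in 49 peaks, with 53.3 kb in the list of replicate 1 and 78.4 kb in that of replicate 2, and ranked 34th of 21728 protein-coding genes. Its promoter peak had the highest fold of all 210 window peaks, 27.2, and was 7.32 kb wide in the replicated list, 6.91 kb in that of replicate 1 and 10.8 kb in that of replicate 2. Behind it, peaks covered 32.2 of 55.3 kb of intron 2 and 14.4 of 23.5 kb of intron 6. The strongest of them, with a fold of 11.9, lay in intron 6, 92.2 kb from the 5' end. No peak had its summit past 132.6 kb or before the promoter peak. Of the 49 peaks, 30 were found in the lists of both replicates and 7 in neither. The widest gap between neighbouring peaks was 11.1 kb.

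Nrp2 (chromosome 1, 62703285 to 62818695, plus strand), a coreceptor with a role in lymphatic growth, had a shorter one. It had 21.7 kb in 21 peaks, with 17.6 kb in the list of replicate 1 and 29.96 kb in that of replicate 2. At its 5' end 2 peaks of 1.75 and 3.45 kb, with folds of 15.0 and 11.3, were joined into 1 peak of 5.71 kb in the list of replicate 2. Acetylation lay in the first part of the gene: introns 1 and 2 were covered over 52.8% and 45.6%, and 5 peaks between 14.6 and 26.4 kb measured 11.1 kb. Introns 13 to 16 held no peak.

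Tek, the gene of TIE2 (chromosome 4, 94739289 to 94874976, plus strand), had 21.7 kb in 20 peaks, with 18.2 kb in the list of replicate 1 and 25.7 kb in that of replicate 2. The main promoter peak of 4.13 kb had a fold of 13.2 and measured 4.39 and 4.59 kb in the lists of replicate 1 and 2. The next strongest peak, 4.05 kb wide with a fold of 9.92, lay in intron 1 at 7.03 kb. A second cluster of 5 peaks, all in both single-replicate lists, lay between 86.5 and 91.6 kb in introns 8 to 11, with folds of up to 7.39. Of the 7 peaks between -48.3 and -18.5 kb, 3 were nearest to Ift74, and their folds stayed at or below 4.74.

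Tie1 (chromosome 4, 118471191 to 118490061, minus strand) had 14.6 kb in 12 peaks, with 9.79 kb in the list of replicate 1 and 16.7 kb in that of replicate 2. Its promoter held peaks of 3.33 kb with a fold of 18.0 and of 0.888 kb with a fold of 10.2, which the list of replicate 2 gave as 1 peak of 4.36 kb. The list of replicate 1 divided the larger peak into 2, of which the wider had 1.65 kb. The rest of the gene body was without peaks: the larger promoter peak covered 97.9% of intron 1, and no peak lay in introns 2 to 22. Upstream, 3 peaks between -15.9 and -10.1 kb, all in both single-replicate lists, had folds from 6.16 to 8.24. The peak with the highest fold of the window, 21.8, lay over the neighbour Elovl1, and 5 of the 12 peaks, with 7.98 kb, were nearest to Tie1.

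**Figure D3:**
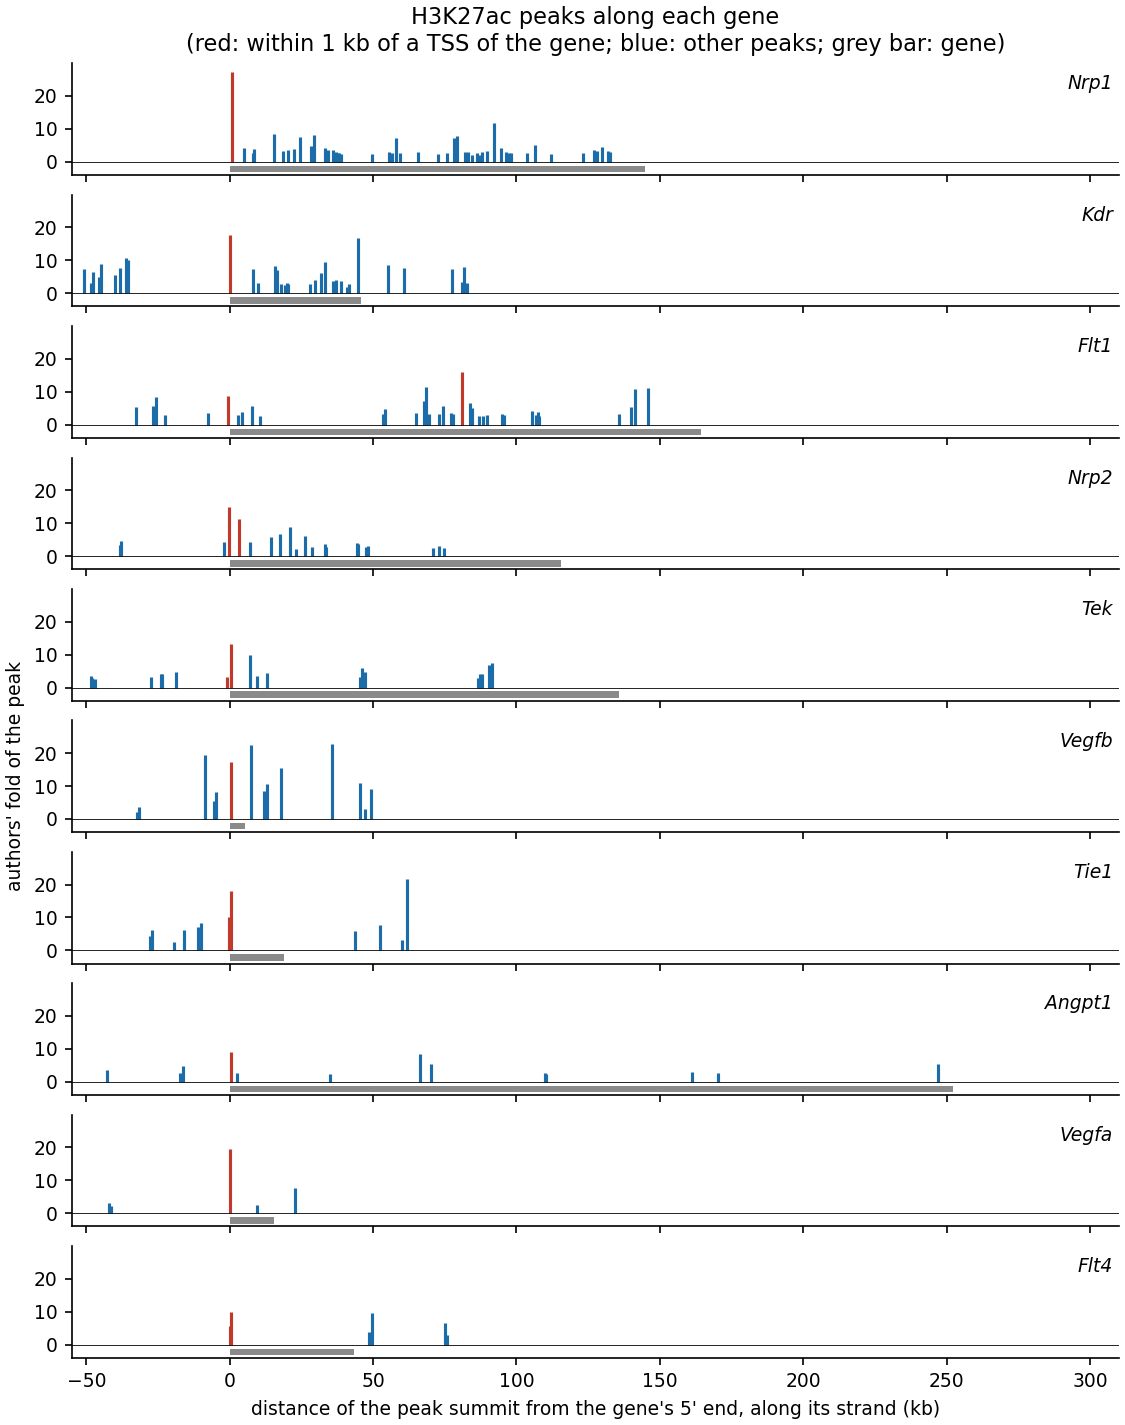
Deposited fold of each of the 210 peaks of the replicated list against the distance of its summit from the 5' end of the gene along its strand (kb). Red lines are peaks within 1 kb of a TSS of the member, blue lines the other peaks, and the grey bar is the gene: Nrp1 and Flt1 carry peaks through their introns, Kdr also upstream, and Flt4 and Tie1 have none in the gene body past the promoter.

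Across the members, the promoter peak had the highest fold in the window at 8 of the 10 genes, the exceptions being Vegfb and Tie1, where the highest lay nearest to neighbouring genes. At Flt1 this was the internal peak over the start of the retained-intron transcript, and the peak at its 5' end, with a fold of 8.85, was weaker than others of the window. The share of all protein-coding genes whose promoter peak is the strongest was not computed. Peaks near a TSS had higher folds than distal ones over the whole list as well. Of the 210 peaks, 15 were promoter peaks. Their median fold was 13.2 and their median width 3333 bp, against 8.73 and 1051 bp for all 20563 peaks near a TSS. They held 20.0% of the acetylated length. Peaks more than 2.5 kb away from every annotated TSS, called distal here, numbered 167 and made up 79.5% of the window peaks, against 59.1% of all peaks, and 67.3% of the acetylated length. Their median fold of 3.66 was close to that of all distal peaks, 3.89, and their median width was 708 bp against 577 bp. Of the 167, Nrp1, Kdr and Flt1 held 48, 33 and 30. The members are long, with a median of 80.5 kb against 17.4 kb for all protein-coding genes. The distal share for genes of like length was not computed.

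Where acetylation lay relative to the gene differed among the members. More than 50% of the covered length was inside the gene at 7 of 10, from 55.4% at Kdr to 96.3% at Nrp1. The share of all protein-coding genes above 50% was not computed. Vegfb, with 6.17%, Tie1, with 22.6%, and Flt4, with 29.3%, had most of theirs outside. Summed over the 10 windows, 70.9% was in gene bodies, 16.9% upstream and 12.2% downstream, and without Nrp1 the share in gene bodies was 61.7%. The summed share was 30.2% over all protein-coding genes with a peak in the window and 71.4% over those of the longest length class, which holds Nrp1, Nrp2, Flt1, Tek and Angpt1. By gene, the median share was 74.4% for the members, 16.7% for all protein-coding genes with a peak in the window and 70.1% for the longest class. Of the 210 summits, 121 (57.6%) fell into introns. The share of the gene covered by peaks was 58.0% at Kdr, 47.0% at Vegfa, 45.2% at Nrp1, 23.4% at Vegfb, 18.3% at Flt1, 17.6% at Tie1, 17.3% at Nrp2, 11.8% at Tek, 3.87% at Angpt1 and 2.81% at Flt4. All 10 exceeded the median of 1.98% over protein-coding genes, Angpt1 and Flt4 only at percentiles of 60.2 and 54.6. That median includes genes without a peak at the 5' end, and the median over genes with one was not computed.

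How far the single peaks recur was read from the lists of the single replicates. Because the replicated list was derived from the same replicates, part of the overlap is built in. Of the 210 peaks, 145 (69.0%, exact 95% interval 62.3 to 75.2%, which covers counting of peaks only) overlapped a peak in both lists. Over all peaks of the replicated list the share was 73.0%, inside that interval. Another 41 were found in the list of replicate 2 only, 8 in that of replicate 1 only and 16 in neither. The median fold was 5.74 for those in both lists and 2.81 for the remaining 65, and the median widths were 1121 and 316 bp. All 15 promoter peaks were in both lists, and the share over all peaks near a TSS was not computed. Conversely, 47 peaks of the list of replicate 2 in these windows and 4 of replicate 1 overlapped no peak of the replicated list, with median folds of 3.59 and 3.10 in their own lists.

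**Figure D4:**
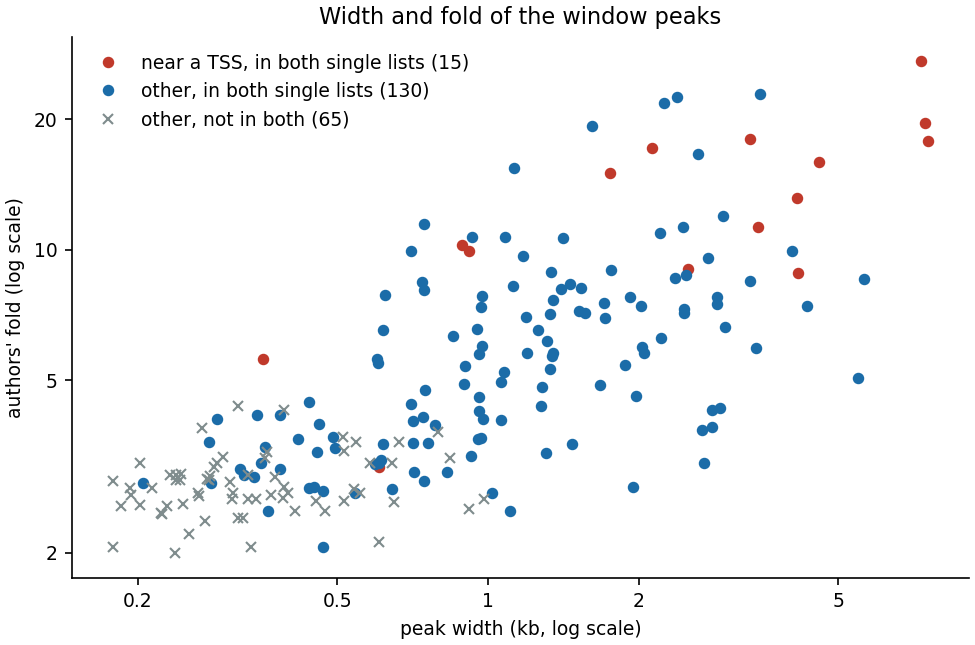
Width (kb, log scale) and deposited fold (log scale) of the 210 window peaks of the replicated list. Circles are peaks found in both single-replicate lists (red: within 1 kb of a TSS of the member, blue: others) and grey crosses are the 65 that are not, which lie at low fold and small width.

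The strongest distal peak outside exons is shown for 6 members, those where it had a fold above 8 and lay nearest to the member itself (a limit chosen after the values were seen, which leaves out Vegfa with 7.68 and Tie1 with 7.10), as the 200 bp around its summit, 5′ to 3′ along the gene's strand, on GRCm38 (mm10). Capitals mark every match, on either strand, to 10 short consensus sequences of factors with roles in endothelium, hypoxia or heart muscle. Factors of the ETS family, which act in all endothelium, were searched as AGGAAG and also with a first base of C. GATA factors were searched with the letters AGATAA, forkhead factors (FOX) with the letters GTAAACA, and SOX factors with ACAAAG and also with T as the fifth base. TEAD factors were searched with the letters GGAATG, AP-1 with the letters TGANTCA, the KLF family with the letters CCACCC, and RBPJ, the factor of Notch signalling, with the letters TGGGAA. The hypoxia response element was searched with the letters ACGTG, and MEF2 is given by name alone. Where 2 matches overlap, capitals run through both.
Kdr, upstream, chr5:76014509-76014708, minus strand: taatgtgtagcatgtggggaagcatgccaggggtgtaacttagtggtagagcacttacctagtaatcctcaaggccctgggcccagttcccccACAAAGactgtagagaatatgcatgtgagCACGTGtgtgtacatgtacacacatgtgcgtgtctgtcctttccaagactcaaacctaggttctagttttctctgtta
Flt1, intron 10, chr5:147657563-147657762, minus strand: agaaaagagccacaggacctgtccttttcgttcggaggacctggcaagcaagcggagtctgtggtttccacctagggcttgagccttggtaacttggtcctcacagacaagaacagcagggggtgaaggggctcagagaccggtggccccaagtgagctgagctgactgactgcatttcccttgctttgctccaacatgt
Nrp1, intron 6, chr8:128450720-128450919, plus strand: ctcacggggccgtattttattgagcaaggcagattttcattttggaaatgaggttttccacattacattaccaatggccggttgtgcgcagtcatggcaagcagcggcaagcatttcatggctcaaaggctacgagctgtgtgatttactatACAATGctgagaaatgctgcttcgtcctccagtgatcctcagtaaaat
Nrp2, intron 2, chr1:62724332-62724531, plus strand: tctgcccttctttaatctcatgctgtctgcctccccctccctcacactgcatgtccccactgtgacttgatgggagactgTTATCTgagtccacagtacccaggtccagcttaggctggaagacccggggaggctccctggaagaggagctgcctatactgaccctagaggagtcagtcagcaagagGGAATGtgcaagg
Tek, intron 1, chr4:94746221-94746420, plus strand: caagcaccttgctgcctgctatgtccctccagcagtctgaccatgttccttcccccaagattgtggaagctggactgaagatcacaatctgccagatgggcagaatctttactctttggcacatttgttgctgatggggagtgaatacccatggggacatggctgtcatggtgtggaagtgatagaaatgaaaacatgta
Angpt1, intron 1, chr15:42610437-42610636, minus strand: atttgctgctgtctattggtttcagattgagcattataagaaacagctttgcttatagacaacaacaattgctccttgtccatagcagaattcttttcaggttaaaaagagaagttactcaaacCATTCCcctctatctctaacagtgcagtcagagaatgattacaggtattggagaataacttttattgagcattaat
The window upstream of Kdr held a SOX match and the hypoxia response letters, which read the same on both strands there. The Nrp1 window held a SOX match, that of Nrp2 a GATA and a TEAD match and that of Angpt1 a TEAD match. None of the 10 consensus sequences stood in these windows of Flt1 and Tek.

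Over all 167 distal window peaks, the matches were about as frequent as in the 37273 distal peaks of the whole list. The ETS letters stood in 24.6% (exact 95% interval 18.2 to 31.8%) against 29.0%, GATA in 7.78% against 10.3%, RBPJ in 17.4% against 20.9%, KLF in 10.2% against 14.3% and the hypoxia response in 9.58% against 9.78%. SOX letters stood in 32.9% (25.9 to 40.6%) against 26.0%, at the lower end of the interval, TEAD in 15.0% against 11.6% and FOX in 5.39% against 3.22%. AP-1 stood in 4.79% against 5.97% and MEF2 in 2.40% against 3.37%. For all 10 consensus sequences, the share in all distal peaks lay inside the interval of the window peaks. The median GC content was 46.0% in these windows and 47.5% in all distal peaks. By member, SOX letters stood in 16 of 48 distal windows of Nrp1 and 12 of 33 of Kdr, and ETS letters in 12 of 30 of Flt1, 11 of 48 of Nrp1 and 8 of 33 of Kdr. A match is a description of letters of the reference genome and says nothing of a factor's binding. Differences of the alleles of the hybrid mice from the reference were not examined.

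The other genes of the pathway were 38 genes in 5 roles. A promoter peak was present at 31 of 38, or at 30 of 38 within 1 kb of the 5' end, beside 57.3% and 53.7% of all protein-coding genes, and the median acetylated length was 10.6 kb, beside 4.39 kb. The counts by role rest on few genes, and that of the ligands is near the share of all genes. Among the further ligands, 3 of 5 had one. Pgf, a ligand of Flt1, had 11.2 kb, Angpt2, the context-dependent antagonist of Angpt1, 7.73 kb and Vegfc, the ligand of Flt4, 2.60 kb. Angpt4 and Vegfd had no promoter peak, with 10.9 and 5.36 kb in their windows, and Vegfd had one in the list of replicate 2.

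Of 8 partners of the neuropilins, 6 had a promoter peak. Of the 3 plexins, which transmit semaphorin signals, 2 led with 47.6 kb at Plxnd1 (42.0 kb in the list of replicate 1 and 55.7 kb in that of replicate 2) and 42.8 kb at Plxna2 (30.6 and 51.7 kb), the semaphorin Sema3f had 23.8 kb, and the third plexin, Plxna1, had 6.32 kb. The semaphorins Sema3a and Sema3e had no promoter peak, and Sema3e had no peak within 50 kb in the replicated or either single-replicate list. The range of Plxnd1 over the single-replicate lists lay inside that of Kdr.

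Of 5 genes that act with TIE2, 4 had a promoter peak. Ptprb, the phosphatase VE-PTP that restrains TIE2, had 31.8 kb (27.4 and 37.1 kb in the lists of replicate 1 and 2), while Tnip2, the TIE2-binding protein ABIN2, had 4.03 kb and Dok2, an adaptor bound by TIE2, 2.22 kb. Bmx, a kinase of the TEC family, had no promoter peak and 0.532 kb. Of 7 adaptors of the VEGF receptors, 6 had a promoter peak, led by Plcg1, the phospholipase that binds activated Kdr, with 35.2 kb, Shb with 29.6 kb and Nck1 with 28.2 kb. Sh2d2a, the adaptor TSAd, had none and 4.31 kb.

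Among 13 kinases and effectors further down, 12 had a promoter peak. Pxn, the focal adhesion protein paxillin, had 36.2 kb, Pik3r1, a regulatory subunit of PI 3-kinase, 28.0 kb and Nos3, the endothelial nitric oxide synthase, 26.2 kb. Prkcb, the kinase PKC beta, had no promoter peak and 0.435 kb. The promoter peak of Src lay at an internal TSS and not within 1 kb of the 5' end of the gene.

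**Figure D5:**
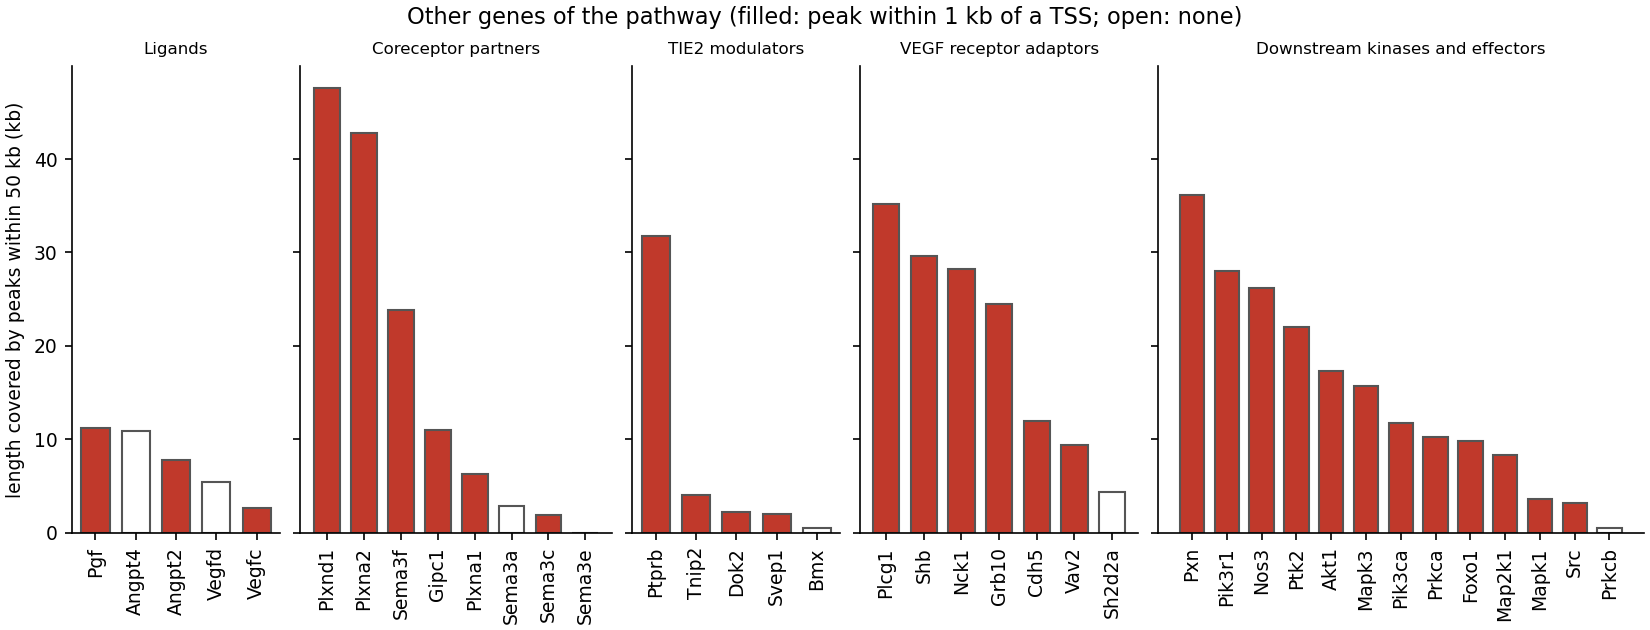
Length covered by peaks within 50 kb (kb) of the 38 other genes of the pathway in the replicated list, by role. Filled bars have a peak within 1 kb of a TSS and open bars do not: the 7 open bars are Angpt4, Vegfd, Sema3a, Sema3e (0 kb), Bmx, Sh2d2a and Prkcb.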

How the data were processed

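The H3K27ac libraries of mouse heart formed 1 group of 4. The authors deposited 4 peak lists, on mm10 per the labels: replicated peaks and pseudoreplicated peaks of both biological replicates, and 1 list for each replicate. Technical replicates had been joined, so no list gives a value per library. The authors' ratio for each peak, called fold here, and their −log10 p and −log10 q were used only to rank or filter peaks within a list. Which aligner and peak caller were run is not given in the sources used here, and depth is unknown, so intervals cover counting only.

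Genes came from GENCODE M21, with unique names on chromosomes 1 to 19 and X (21728 protein-coding genes), and bases from the GRCm38 genome, which is mm10. Peaks overlapped when they shared at least 1 bp. Nearest genes were judged from peak summits. Computation used Python 3.11.15 with pandas 2.3.3, numpy 2.4.6, scipy 1.17.1 and pysam 0.24.0, and was tested on simulated peaks. The members and gene lists were chosen with earlier results of these data known. Named are all 10 members with their promoter peaks and their strongest further peaks, and of the other pathway genes up to 3 per role with most acetylated length and every gene without a promoter peak; Vegfc, Angpt2, Plxna1, Cd68, Myh11, Prox1, Lyve1, Pdpn and Src were added or kept for their role after the values were seen. Alternatives changed the list, the q and fold limits, the windows, and the distances.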

Additional observations from a re-analysis of the deposited data

How the results depend on the processing

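No paired analysis was possible because peaks were called on joined libraries and no test was made. All 10 members kept a promoter peak and a peak at the 5' end under each alternative tried: either single-replicate list, the pseudoreplicated list of both, q of at most 0.01, a fold of at least 4, promoter distances of 0.5 and 2.5 kb, and a peak that covers the TSS. The distance of 2.5 kb could only add promoter peaks, so its outcome was fixed. The number of window peaks ran from 184 to 188 when only 1 biological replicate was used, and fell to 104 with a fold of at least 4. It was 191 with q of at most 0.01, and 9 of the 210 window peaks had a q above 0.05. The median acetylated length of the members moved by less than the standard deviation of the values of the single-replicate lists under each alternative. Its lowest value was 15.6 kb, in windows of 25 kb. The limit is wide, because the list of replicate 2 covers 1.49 times the length of that of replicate 1. Both lists also set this limit, so their own outcome as alternatives was largely fixed. The share of window peaks in both single-replicate lists was 37.6% when the overlap had to make up 0.5 of each of the 2 peaks and 75.4% among peaks with q of at most 0.01. Counting only those peaks nearest to the member changed Vegfb to 2.12 kb, Tie1 to 7.98 kb and Flt4 to 1.27 kb, and a window of 100 kb brought Vegfa to 21.5 kb. A fold of at least 4 brought Nrp1 from 68.0 to 42.2 kb, close to Kdr with 39.1 kb. Kdr had 34.2 kb in a window of 25 kb and 61.8 kb in one of 100 kb. Vegfb, Angpt1 and Tie1 also moved with the window. With peaks joined within 5 kb, the longest region over Nrp1 fell from 68.0 to 36.4 kb that over Kdr from 34.2 to 15.6 kb and that over Tie1 from 10.1 to 4.22 kb. Of 100 further values, for single members, motifs and regions, 78 moved by less than such a standard deviation, the counting interval or 1.5 times. Those for single members again include the lists that set the limit. In 500 bp around the summit, TEAD letters stood in 34.7% of distal window peaks and 27.7% of all distal peaks, the hypoxia response in 29.3% and 23.1% (9.58% and 9.78% in 200 bp), SOX letters in 59.9% and 54.0%, and MEF2 letters in 5.99% and 10.2%; the 6 others differed by less than 5 percentage points. Unknown depth limits what the narrow, weak peaks can show.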
